A study of Mus musculus with 8 samples.

Results

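Lmna and 6 other genes of the nuclear lamina and the inner nuclear membrane (Lmnb1, Lmnb2, Lbr, Emd, Sun1 and Sun2) were followed across cell types of the mouse colonic lamina propria, the tissue layer beneath the gut epithelium. They are 7 of the 31053 gene rows in the deposited tables. The set was chosen by the level of Lmna, which was lower after dextran sulfate sodium (DSS) in wildtype CD4 T cells. The wildtype DSS difference in T cells is therefore described here without a test. Tests were kept to the mutant mice, to cells other than T cells and to the genotype comparisons. For Lmna in T cells the genotype comparisons are also a description. The main fits held all 8 libraries with a shared estimate of spread, so wildtype libraries enter the SE of the mutant tests. Tests of other cell types over both genotypes hold the same wildtype libraries. Neither kind of test is thus fully independent of the choice of Lmna. Droplet single-cell RNA sequencing of messenger 3' ends gave 8 libraries in 4 groups of 2, which the series text calls independent biological replicates. The groups were untreated wildtype mice, untreated mutant mice, DSS-treated wildtype mice and DSS-treated mutant mice. All were C57BL/6, aged 10 to 12 weeks and kept specific pathogen free. DSS, a polymer that injures the colonic epithelium, was given at 2% in drinking water for 7 days, followed by regular water for 3 days. Untreated mice drank regular water, and all mice were taken on day 10. The mutant carries a serine-to-alanine change in RORgt, the transcription factor of Th17 cells that is also made by ILC3 and by a part of the colonic regulatory T cells. The series title names it RORgtS182A and the sample titles S203AKI. The labels name no Cre or other cell-type restriction for this change, so any cell that makes RORgt could carry its effect. Cells passed a magnetic CD4 T cell isolation step in every group, so the other cell types below are the carry-over of that step.

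The nuclear lamina is a meshwork of intermediate filament proteins under the inner nuclear membrane that gives the nucleus its stiffness and anchors silent chromatin. Lmna encodes the A-type lamins A and C, splice products whose amount is known to rise in stiff tissues and to be low in resting lymphocytes. Lmnb1 and Lmnb2 encode the B-type lamins, which stay bound to the membrane. Lbr encodes the lamin B receptor, a membrane protein that tethers heterochromatin, and Emd encodes emerin, a LEM-domain protein that binds A-type lamins. Sun1 and Sun2 encode the inner-membrane part of the LINC complex, which joins the lamina to the cytoskeleton through nesprins in the outer membrane. In T cells, A-type lamins are known to appear after activation.

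On the GRCm38 (mm10) assembly Lmna lies on the minus strand at chr3:88480147-88509956, Lmnb1 on the plus strand at chr18:56707813-56753424 and Lmnb2 on the minus strand at chr10:80901203-80918245. Lbr lies on the minus strand at chr1:181815335-181843046, Emd on the plus strand at chrX:74254687-74261548, Sun1 on the plus strand at chr5:139200637-139249840 and Sun2 on the minus strand at chr15:79724070-79742536. In the GENCODE annotation the span of Lbr overlaps Gm26004 on its own strand and Dnah14 on the other. Emd overlaps Gm14686 on its own strand. Sun1 overlaps 4930520M14Rik and Sun2 overlaps Gm16575, each on the opposite strand. Lmna, Lmnb1 and Lmnb2 overlap no other annotated gene. Counts from 3' ends sum over a gene's transcripts, so lamin A and lamin C are not told apart.

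The libraries held 34497509 to 46960005 unique molecular identifiers (UMIs, 1 per captured transcript). Of 96721 barcodes within the limits on genes and mitochondrial share, 20719 were on the authors' list of cells and in a T cell cluster, here the CD4 T cells. They numbered 1775 to 3751 per library, with a median of 1944 to 2884 UMIs per cell. Their sums held 290 to 394 Cd3e counts per 1000000 UMIs (CPM) and 445 to 621 CPM of Cd4, against 0.268 to 1.66 CPM of Cd8a. Every cell on that list held a Cd4 UMI, and T cell clusters were chosen by markers that include Cd3e. The Cd3e and Cd4 levels therefore follow from the selection. Any pair of libraries shared 21 to 64 barcodes, and at most 7 among CD4 T cells. The untreated mutant libraries stood apart in a list of 10 handling and heat-shock genes. That list summed to 14080 and 13510 CPM in their CD4 T cells, against 6097 and 8348 in untreated wildtype and 6724 to 7428 in the 4 DSS libraries.

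Lmna was lower after DSS in CD4 T cells of both genotypes, and it was the only one of the 7 genes to pass the test in the mutant. In the mutant, Lmna stood at 209 and 184 CPM in the untreated libraries and at 91.7 and 130 CPM in the DSS libraries. These mutant groups of 2 libraries did not overlap, and the share of all genes without overlap was not counted, here or below. The fall was 0.91 ± 0.17 on the log2 scale (SE; edgeR quasi-likelihood test over all genes, adjusted p = 0.029), a 1.87-fold lower level. In that comparison 584 of 11029 genes tested were called, 268 higher and 316 lower, which is 5.3% of genes. In the wildtype, the comparison by which Lmna was chosen, it stood at 282 and 289 CPM untreated and at 90.2 and 116 CPM after DSS. The 4 DSS libraries of both genotypes averaged 44.4% of the untreated mean. The mutant call was lost when any 1 of the 4 untreated libraries was left out, with falls of 0.67 to 1.17 over all libraries left out in turn, and when only the 4 mutant libraries were fitted (fall of 0.90, adjusted p = 0.0628).

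Handling genes moved with the mutant comparison, from 13510 to 14080 CPM untreated to 7064 to 7262 CPM after DSS, and their part in the fall of Lmna was not tested. In the wildtype those sums overlapped between treatments. Leaving out the T cell cluster led by heat-shock genes, a choice made after seeing the data, gave a mutant fall of 0.89 (adjusted p = 0.0303). Cycling genes summed to 556 to 879 CPM untreated and to 729 to 880 CPM after DSS. Holding the shares of T cell clusters equal in every library gave a log2 ratio of mean Lmna of -1.11 in the mutant, against -0.83 for the plain sums.

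**Figure D1:**
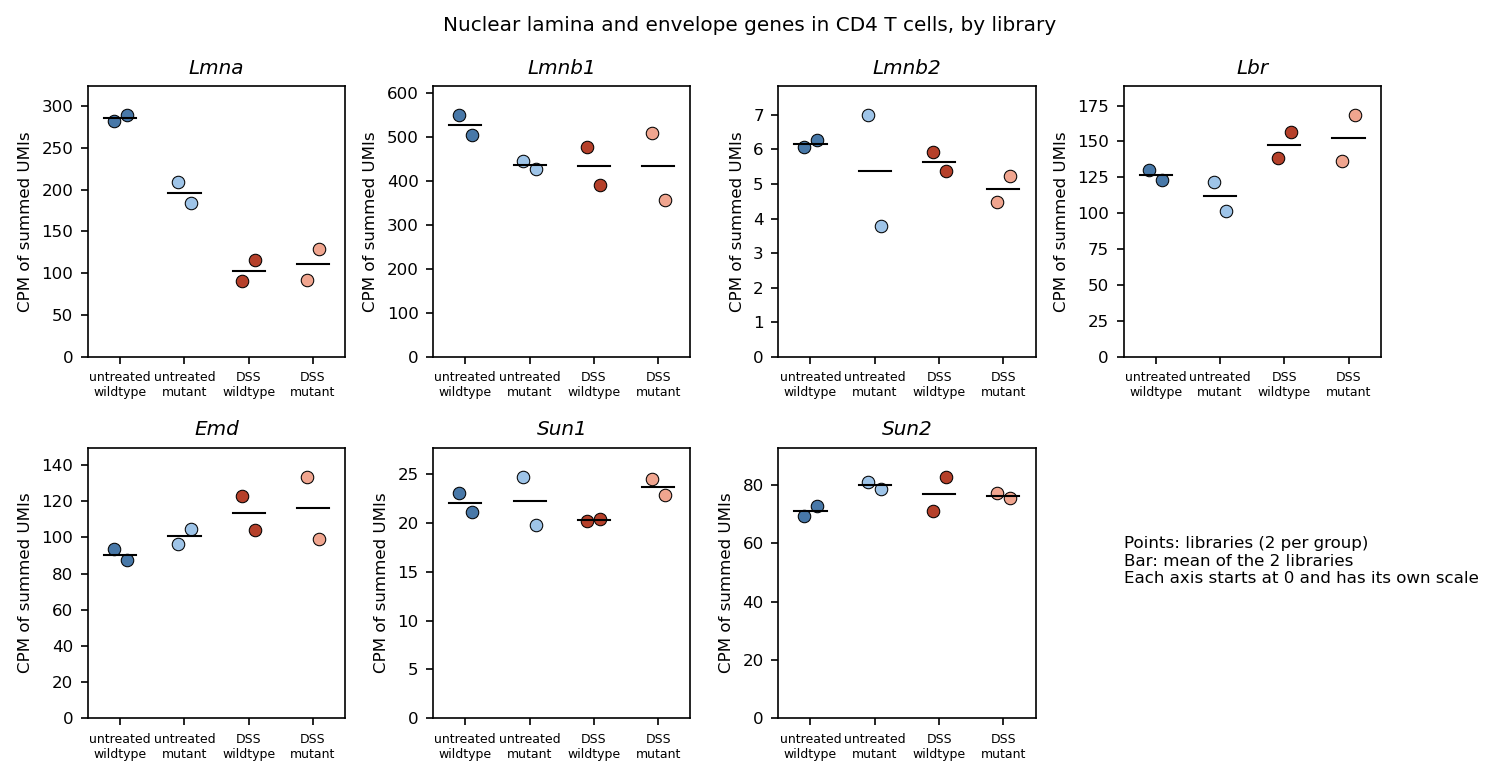
Level of each of the 7 genes in CD4 T cells, in CPM, with 1 point per library and a bar at each group's mean (n = 2). The 4 DSS libraries lie between 90.2 and 130 CPM for Lmna, all below the 4 untreated libraries, and between 137 and 168 CPM for Lbr, all above them.

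RNA of cells rich in Lmna can reach T cell droplets, so its possible size was measured. Macrophage or monocyte markers summed to 75.1 to 156 CPM in CD4 T cells of untreated libraries and 86.6 to 272 CPM after DSS. Fibroblast markers summed to 10.3 to 22.6 CPM untreated and 9.07 to 42.7 CPM after DSS, and blood endothelial markers to 40.1 to 52.1 CPM and 48.9 to 67.9 CPM. Smooth muscle or pericyte markers summed to 11.6 to 52.4 CPM untreated and 5.92 to 12.7 CPM after DSS, a share at which their Lmna would come to at most 0.729 CPM. Blood endothelial markers stood in CD4 T cells at 0.582% to 1.16% of their level in endothelial cells without DSS and at 1.06% to 1.51% with it. Lmna carried over at the same share would come to at most 18.5 CPM in an untreated library and at most 19.1 CPM after DSS. Macrophage RNA counted the same way would give at most 8.68 CPM untreated and 12.5 CPM after DSS. The part of such RNA in the fall was not tested.

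Fewer CD4 T cells held a Lmna UMI after DSS. With every cell thinned to 1000 UMIs, which left out 595 shallower cells, 21.1% and 22.4% of cells held one in untreated wildtype and 17.2% and 13.7% in untreated mutant libraries. After DSS the share was 7.78% and 9.24% in wildtype and 8.11% and 9.54% in mutant libraries. Exact 95% binomial intervals, which cover counting error only, ran from 20.6% to 24.2% for the highest library and from 6.86% to 8.79% for the lowest. Unthinned, the group means were 39.2% and 31.1% untreated and 19.2% and 20.2% after DSS, for wildtype and mutant in turn. Cells that held Lmna UMIs held on average 1.34 to 1.41 of them untreated and 1.16 to 1.2 after DSS. No cell type here is known to lack Lmna, and the lowest share stands nearest to a background. It was that of the T cell cluster with the least Lmna, at 2.13% to 5.07% untreated and 2.20% to 3.14% after DSS. In B-like cells the share was 7.14% to 11.8% untreated and 3.01% to 5.01% after DSS. Fibroblast-like cells, which make A-type lamins, held a Lmna UMI in 29.2% to 38.6% of cells. For Lmnb1 the thinned share was 31.2% to 40.1% in untreated and 27.4% to 36.8% in DSS libraries, so the ranges overlapped. For Lbr it was 8.39% to 11.8% and 12.2% to 14.2%, with no overlap.

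Among clusters of CD4 T cells, the fall of Lmna in the mutant passed the test in both Th17-like clusters, in the Th1-like cluster and in a cluster led by Il17a and Foxp3. The 7 genes were left out of the genes used for clustering. Names were given from marker lists. A cluster with no clear best name, or whose leading genes went against it, stayed unnamed. In the Th17-like cluster led by Il17a and Il17f, effector cells that secrete interleukin 17, Lmna stood at 218 and 153 CPM in untreated mutant libraries and at 54.8 and 28.4 CPM after DSS. The fall was 2.03 ± 0.26 (log2, SE; edgeR adjusted p = 0.00211), the largest of the 10 clusters tested, where 2.74% of genes tested were called. In the second Th17-like cluster, led by Pxdc1 and Serpinb1a, Lmna went from 343 and 263 to 103 and 66.8 CPM, a fall of 1.85 ± 0.25 (adjusted p = 0.000386; 1.69% of genes called). Untreated and DSS mutant libraries did not overlap in both Th17-like clusters, nor in the Th1-like and the Il17a and Foxp3 clusters. Over both genotypes, DSS libraries lay below untreated ones without overlap in 6 of the 10 T cell clusters.

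In the cluster led by Il17a and Foxp3, whose cells were deeper at a median of 4904 UMIs, the 4 mutant libraries read 221, 215, 88.2 and 86.2 CPM in the order untreated, untreated, DSS, DSS. The fall was 1.39 ± 0.16 (adjusted p = 2.93e-05; 3.14% of genes called). In the Th1-like cluster, led by the chemokine gene Ccl5 and the granzyme gene Gzma, the same libraries read 354, 312, 187 and 111 CPM. That fall was also 1.39, with an SE of 0.21 (adjusted p = 0.00258; 4.38% of genes called), and it lost its call without the second DSS-treated mutant library (fall of 0.94, adjusted p = 0.124). Clusters drawn at a coarser resolution gave 3 of 9 with Lmna called lower, with falls of 1.37 to 1.97. These were a Th1-like cluster, the Il17a Th17-like cluster and an unnamed cluster led by Il17a and Il17f. No coarser cluster was led by Pxdc1 and Serpinb1a, whose cluster held only 66 and 120 cells in the untreated mutant libraries. A fit of the mutant libraries alone was not run for the T cell clusters.

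The other 6 clusters had negative Lmna estimates that did not pass. The Treg-like cluster led by Foxp3 and Il10, the regulatory cells that secrete interleukin 10, gave -0.71 ± 0.26 (adjusted p = 0.138; 2.87% of genes called). The Treg-like cluster led by Il1rl1, the interleukin 33 receptor gene, gave -0.58 ± 0.28 (adjusted p = 0.35; 0.737% called). The cycling-like cluster gave -0.35 ± 0.29 (adjusted p = 0.57; 1.52% called). The cluster led by Hspa1a and Ccl20 gave -0.67 ± 0.40 (adjusted p = 0.371; 2.88% called), and 278 of its 714 cells came from the first untreated mutant library. Over the alternatives these estimates ran from -1.002 to -0.408 in the Il10 and -0.78 to -0.34 in the Il1rl1 Treg-like cluster, and from -1.46 to -0.29 in the Hspa1a cluster. The Il10 Treg-like cluster passed without a filter on low counts (adjusted p = 0.0169). The remaining clusters were those with the least Lmna. The cluster led by Hbb-bs and Sostdc1, which had the highest Tfh markers but haemoglobin genes in the lead, gave -0.56 ± 0.32 (adjusted p = 0.369; 2.44% called; -0.84 to -0.11 over the alternatives). The naive or central memory-like cluster gave -0.06 ± 0.53 (adjusted p = 0.974; 2.14% called), with 0 Lmna UMIs in the 55 cells of the first DSS-treated mutant library. Whether the DSS effect differs between T cell clusters was not tested. Without a test, the wildtype estimates were -2.18 and -1.82 in the Th17-like clusters, -1.55 in the Th1-like cluster and -1.34 and -1.27 in the Treg-like clusters. They were -1.94 in the Hspa1a cluster, -1.61 in the Il17a and Foxp3 cluster, -1.26 in the naive or central memory-like, -1.17 in the cycling-like and -0.71 in the Hbb-bs cluster.

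**Figure D2:**
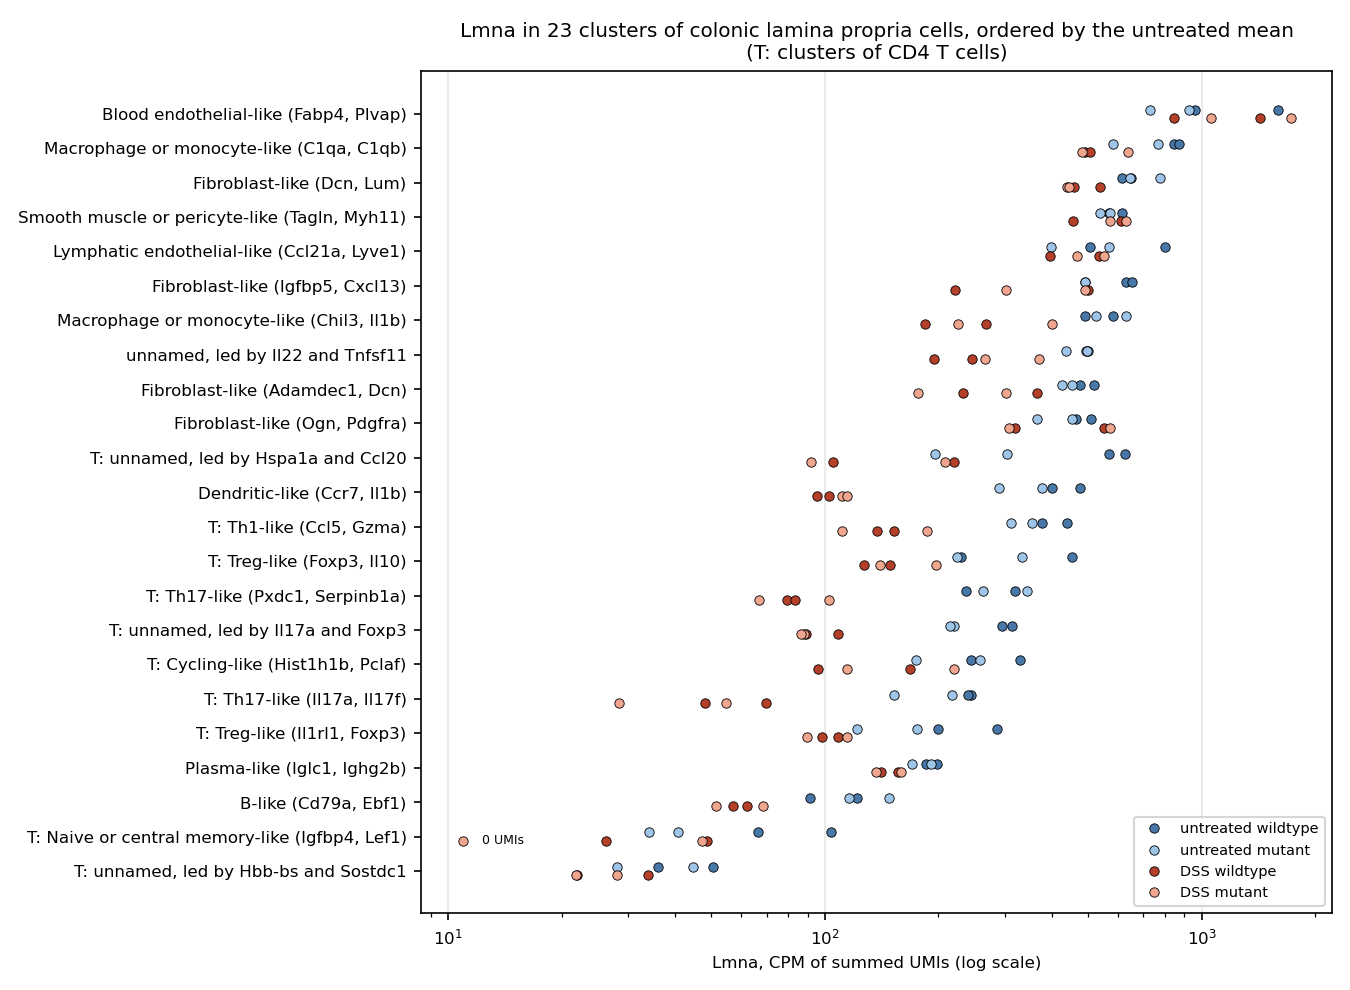
Lmna level in every library, in CPM on a log axis, for each of the 23 clusters ordered by level. DSS libraries lie below untreated ones without overlap in 13 of the 23 clusters, 6 of 10 T cell clusters and 7 of 13 others. Both Th17-like clusters are among them, while endothelial-like and smooth muscle-like libraries overlap. The share of all genes without overlap was not counted.

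The lower Lmna after DSS extended to myeloid, dendritic and B cells and was not called in vessel or muscle cells. Over both genotypes, 6 of the 13 clusters of other cell types had Lmna called lower and 0 had it called higher. In the dendritic-like cluster, led by Ccr7 and Il1b, antigen-presenting cells that migrate to lymph nodes, the untreated libraries read 476, 401, 289 and 377 CPM. The DSS libraries read 102, 95.2, 111 and 114 CPM, so every one lay below every untreated library. The fall was 1.96 ± 0.14 (log2, SE; edgeR adjusted p = 2.86e-06), where 14.3% of genes tested were called. This was the largest estimate among the 13 clusters.

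The 2 macrophage or monocyte-like clusters and the B-like cluster changed the same way. In the cluster led by Chil3 and Il1b, Lmna fell by 1.18 ± 0.17 (adjusted p = 0.00103; 17.9% of genes called), from 491 to 629 CPM untreated to 184 to 401 CPM after DSS. In the cluster led by the complement genes C1qa and C1qb, which mark resident macrophages, it fell by 0.71 ± 0.13 (adjusted p = 0.00376; 24.5% called), from 767 ± 131 to 528 ± 73.9 CPM (SD, n = 4). In B-like cells Lmna stood at 91.1 to 148 CPM untreated and at 51.5 to 68.5 CPM after DSS. The fall there was 1.07 ± 0.16 (adjusted p = 6.27e-05; 15% called), from a level far below that of the myeloid cells. An unnamed cluster led by Il22 and Tnfsf11, with markers of both ILC3 and mast cells, fell by 0.95 ± 0.14 (adjusted p = 0.00191; 2.13% called), from 436 to 500 CPM to 195 to 370 CPM. In plasma-like cells the estimate was -0.31 ± 0.11 (adjusted p = 0.103; 6.29% called), from 186 ± 11.9 to 149 ± 11.2 CPM.

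In the mutant alone, the dendritic-like, Chil3, B-like and Dcn and Lum clusters had Lmna called lower (3.1%, 6.49%, 8.42% and 11.1% of genes called). The C1qa cluster gave -0.47 ± 0.18 there (adjusted p = 0.104; 15.1% called), against an estimate of -0.95 in the wildtype, and the Il22 cluster -0.67 ± 0.20 (adjusted p = 0.145; 0.699% called), against -1.23. The DSS effects of the genotypes differed by 0.49 ± 0.26 in the C1qa and 0.56 ± 0.28 in the Il22 cluster, which did not pass (edgeR adjusted p = 0.985 and 0.976).

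Among stromal cells, the fibroblast-like cluster led by Dcn and Lum had Lmna called lower, by 0.47 ± 0.13 (adjusted p = 0.0249; 17.3% of genes called). This call was lost without either untreated wildtype library, without the second untreated mutant library or without the first DSS-treated wildtype library, at falls of 0.39 to 0.53. The fibroblast-like cluster led by Adamdec1, with 553 to 1103 cells per untreated library and 27 to 179 per DSS library, gave -0.89 ± 0.21 (adjusted p = 0.0712; 0.735% called). It passed with no filter, by DESeq2 and without either DSS-treated mutant library, with adjusted p-values of 0.000309 to 0.331 over 11 alternatives. The cluster led by Igfbp5 and Cxcl13 gave -0.59 ± 0.27 (adjusted p = 0.179; 16.8% called), and it passed with no filter and without the second DSS-treated wildtype library (-1.03 to -0.32 over the alternatives). The cluster led by Ogn and Pdgfra gave 0.01 ± 0.25 (adjusted p = 0.994; 3.73% called). Fibroblasts secrete the collagen matrix of the lamina propria, and whether the estimates of these 4 clusters differ was not tested.

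Lmna was not called in vessel or muscle cells. Blood endothelial-like cells read 1592, 957, 924 and 731 CPM untreated and 846, 1424, 1056 and 1722 CPM after DSS, so the groups overlapped. Their estimate was 0.30 ± 0.22 (adjusted p = 0.465; 5.07% of genes called), and pericyte and haemoglobin genes also led that cluster. Smooth muscle or pericyte-like cells, the contractile cells of the wall and its vessels, stood at 573 ± 32.7 CPM untreated and 567 ± 78.9 CPM after DSS (SD, n = 4), with an estimate of -0.12 ± 0.15 (adjusted p = 0.678; 3.36% called). Lymphatic endothelial-like cells gave -0.25 ± 0.20 (adjusted p = 0.571; 1.63% called). The 2-SE interval of the smooth muscle estimate ran from -0.42 to 0.17, and that of the blood endothelial estimate from -0.14 to 0.75. Over the alternatives the blood endothelial estimate ran from 0.07 to 0.52. The smooth muscle estimate ran from -0.23 to -0.04 and the lymphatic one from -0.42 to -0.05.

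Whether the DSS effect on Lmna differs between these cell types was not tested. Handling genes differed between the libraries here too. In the dendritic-like cluster they summed to 5718 to 12480 CPM untreated and 6335 to 6995 CPM after DSS, and in B-like cells to 4767 to 13140 and 7271 to 8074 CPM. In the wildtype dendritic-like libraries these sums were 5718 and 7741 CPM untreated and 6686 and 6335 CPM after DSS. Lmna there was 438 ± 53.3 and 98.8 ± 5.09 CPM (SD, n = 2). These are values of a single cluster and genotype. The part of handling genes in the fall of Lmna was not tested in any cluster.

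**Figure D3:**
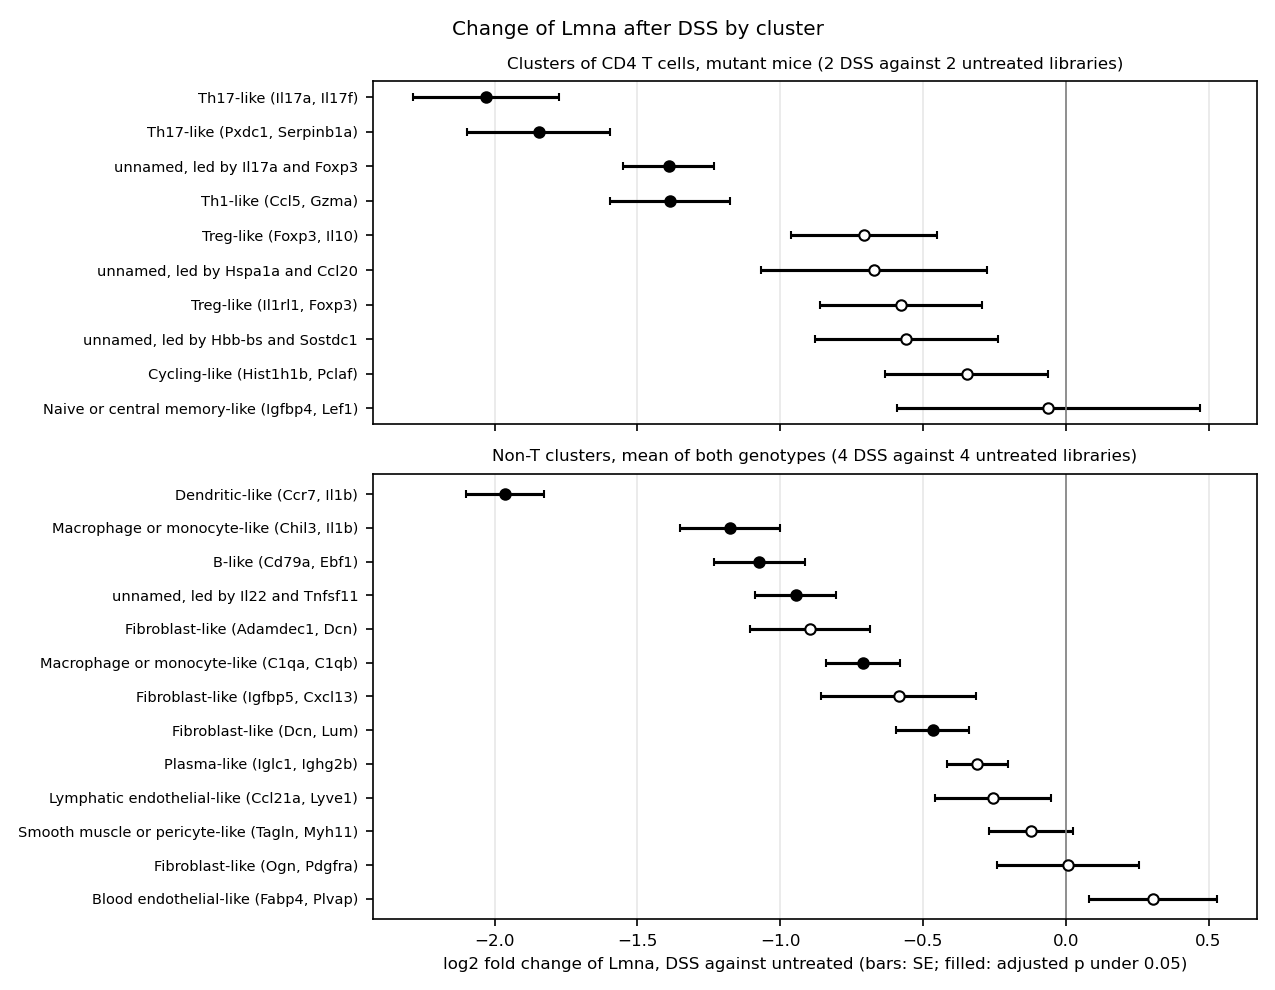
Log2 fold change of Lmna after DSS with bars of the SE on each side, in T cell clusters of the mutant and in clusters of other cell types over both genotypes, with clusters past the test marked. The Th17-like and dendritic-like clusters lie lowest, near -2, and the endothelial-like and smooth muscle-like clusters lie near 0.

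Across cell types, Lmna varied more than any other of the 7 genes, the next being Lmnb1 with a 14.8-fold range. The mean of Lmna over the 8 libraries ranged 34.9-fold, from 33.1 ± 10.3 CPM in the Hbb-bs T cell cluster to 1157 ± 371 CPM in blood endothelial-like cells. Untreated, blood endothelial-like cells (1051 ± 374 CPM) were followed by the C1qa macrophage or monocyte-like cluster (767 ± 131) and by the Dcn and Lum fibroblast-like cluster (672 ± 71.8). Smooth muscle, lymphatic endothelial, other fibroblast-like and Chil3 cells stood between 448 and 573 CPM. Among T cells the order was the Hspa1a cluster (424 ± 207), Th1-like (371 ± 53.4), the Il10 Treg-like cluster (310 ± 108) and the Pxdc1 Th17-like cluster (291 ± 49.1). The Il17a and Foxp3 cluster (262 ± 51.2), cycling-like cells (251 ± 63.6), the Il17a Th17-like cluster (214 ± 42.2) and the Il1rl1 Treg-like cluster (196 ± 68.9) followed. The naive or central memory-like cluster (61.3 ± 31.6) and the Hbb-bs cluster (39.8 ± 9.82) came last (SD, n = 4 throughout). Neighbours in the order of 23 clusters mostly lay within their spread. The gap exceeded the larger SD at 4 places, which set off the 3 highest clusters, the next 4, plasma-like cells (186 ± 11.9) from B-like cells (119 ± 23.2), and B-like cells from the last pair. These levels are a description, since cells were clustered on expression.

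The B-type lamin Lmnb1 was high in most T cell clusters and in dendritic-like cells, and low in vessel and muscle cells. Untreated, it was highest in the Il17a Th17-like cluster (594 ± 75.9 CPM), in cycling-like T cells (583 ± 66.2) and in Th1-like cells (542 ± 66.0). It was lowest in smooth muscle or pericyte-like cells (33.6 ± 16.0 CPM), lymphatic (40.4 ± 15.2) and blood endothelial-like cells (45.2 ± 22.2). Among T cells the naive or central memory-like cluster stood apart at 90.3 ± 20.1 CPM. Dendritic-like cells read 412 ± 46.2 CPM untreated, above the Hbb-bs (304 ± 43.7) and Hspa1a (289 ± 40.6) T cell clusters, and 548 ± 77.4 CPM after DSS. Plasma-like cells were low for both lamins. Across the 23 clusters the levels of Lmna and Lmnb1 correlated at r = -0.41, a description over clusters that share libraries. Lmnb2 was detected at 3.77 to 6.99 CPM in CD4 T cells, 358 UMIs in all, and entered the test in 2 of 10 T cell clusters and 6 of 13 others.

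The remaining members differed less between cell types. Lbr was highest in cycling-like T cells (213 ± 16.7 CPM), above the next cluster by more than the spread, and lowest in plasma-like cells (33.7 ± 1.05). Emd was highest in the Il22 cluster (165 ± 14.5 CPM), again beyond the spread, and lowest in plasma-like cells (16.9 ± 1.68). Sun1 and Sun2 differed in where they were highest. Sun1 led in lymphatic (39.4 ± 2.76 CPM) and blood endothelial-like cells (38.6 ± 6.98), and it was lowest in the C1qa macrophage or monocyte-like cluster (7.49 ± 1.01). Sun2 led in the Hbb-bs T cell cluster (93.7 ± 7.38 CPM), followed by the Il17a and Foxp3 T cell cluster (85.0 ± 11.3) and B-like cells (84.4 ± 12.1). Within T cells the untreated means ran from 19.0 to 28.8 CPM for Sun1 and from 49.8 to 93.7 CPM for Sun2.

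**Figure D4:**
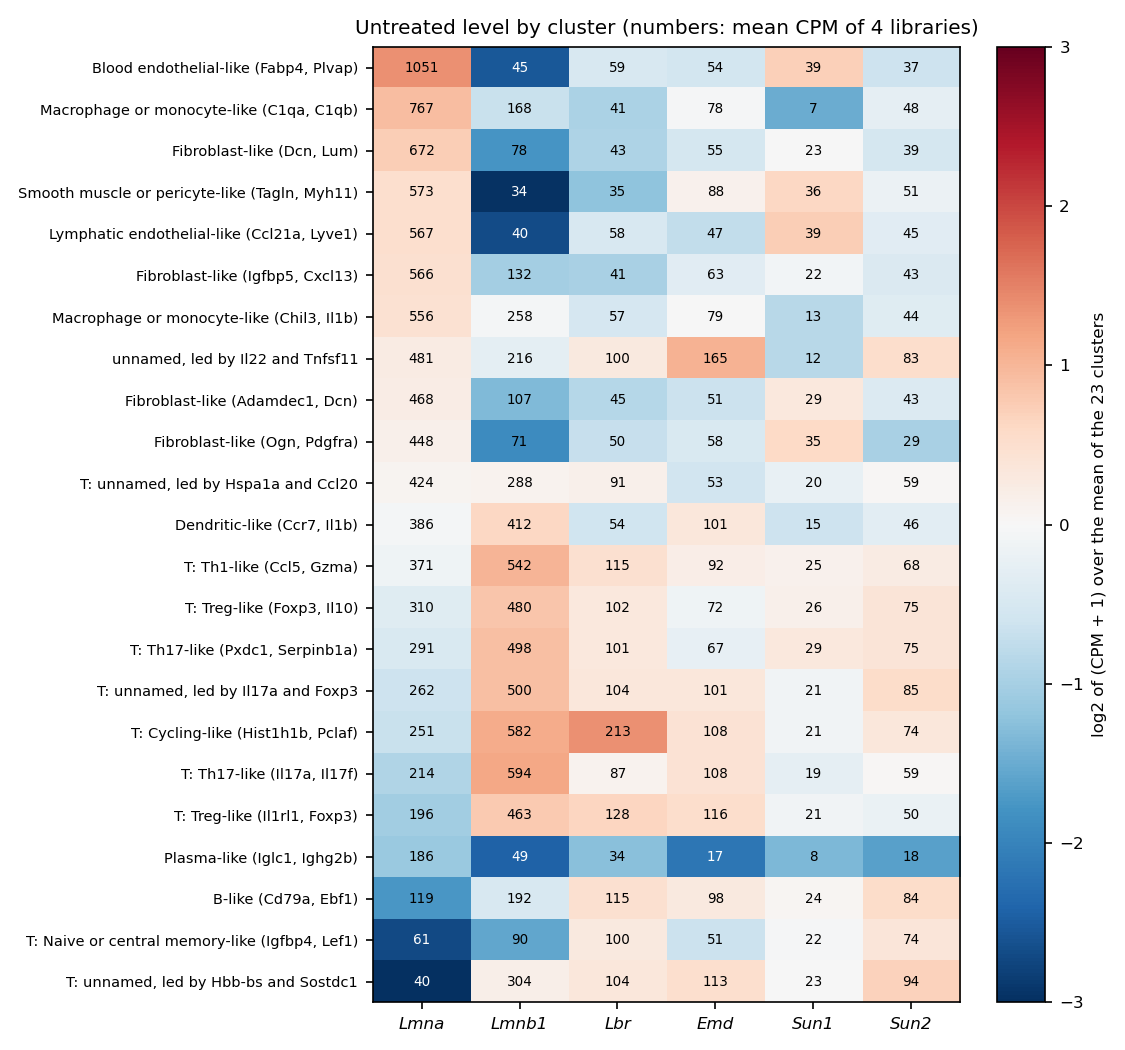
Mean untreated level of each gene in each cluster (n = 4 libraries), with clusters in rows and colour for the log2 of CPM + 1 over that gene's mean of the 23 clusters. Lmna is high in vessel and muscle rows where Lmnb1 is low, and Lbr stands out in cycling-like T cells.

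None of the other 6 genes passed the test after DSS in CD4 T cells of the mutant. Lmnb1 read 446 and 428 CPM in untreated and 510 and 358 CPM in DSS-treated mutant libraries, with an estimate of -0.09 ± 0.17 (log2, SE; edgeR adjusted p = 0.758). The second B-type lamin, Lmnb2, gave -0.21 ± 0.30 (adjusted p = 0.691). Lbr read 122 and 102 CPM untreated and 137 and 168 CPM after DSS in the mutant, an estimate of 0.37 ± 0.13 that did not pass (adjusted p = 0.118). Over the alternatives that estimate ran from 0.22 to 0.52. In both genotypes together every DSS library lay above every untreated one for Lbr, and the DSS mean was 126% of the untreated mean. The share of all genes parted in this way was not counted. Emd gave 0.12 ± 0.16 (adjusted p = 0.654), Sun1 0.00 ± 0.14 (adjusted p = 0.993) and Sun2 -0.15 ± 0.11 (adjusted p = 0.416). The untested wildtype estimates were -1.54 for Lmna, -0.35 for Lmnb1, 0.15 for Lbr, 0.27 for Emd, -0.19 for Sun1 and 0.04 for Sun2.

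By cluster, single calls in these 6 genes are read against the share of all genes called in the same fit. Signs over clusters that share libraries are not independent, and the share of all genes with 1 sign throughout was not counted. Lbr had a positive estimate in 10 of 10 T cell clusters of the mutant (0.01 to 0.78) and was called in 1, the Il17a Th17-like cluster. It read 73.2 and 77.6 CPM there untreated and 116 and 154 CPM after DSS, a rise of 0.78 ± 0.20 (adjusted p = 0.0493; 2.74% of genes called) that was lost under 9 of 11 alternatives. The untested wildtype estimate in that cluster was -0.16, and the difference between the DSS effects, 0.94 ± 0.29, did not pass (adjusted p = 0.974). In other cell types Emd had a positive DSS estimate in 13 of 13 clusters (0.002 to 0.65) and was called in the Chil3 macrophage or monocyte-like cluster. It rose there by 0.65 ± 0.15 (adjusted p = 0.0114; 17.9% of genes called), from 70.9 to 84.8 CPM to 98.6 to 148 CPM, a call lost without the second untreated mutant library (adjusted p = 0.0624). Lmnb1 rose in the same cluster by 0.40 ± 0.11 (adjusted p = 0.0294, lost under 7 of 11 alternatives), from 247 to 268 CPM to 322 to 387 CPM. In that cluster Lmna fell while Emd and Lmnb1 rose, in a fit where 17.9% of all genes were called. Lmnb1 also rose in the Dcn and Lum fibroblast-like cluster, by 0.62 ± 0.16 (adjusted p = 0.0171; 17.3% of genes called), with overlapping groups at 54.2 to 103 CPM untreated and 81.3 to 129 CPM after DSS. That call was lost without the first untreated wildtype, untreated mutant or DSS-treated wildtype library. In the mutant alone, Lbr rose in the C1qa cluster by 0.51 ± 0.15 (adjusted p = 0.0411; 15.1% of genes called) and Lmnb1 in the Dcn and Lum cluster by 1.05 ± 0.23 (adjusted p = 0.00965; 11.1% called). Over both genotypes Lbr was called in 0 of 13 clusters, the C1qa cluster among them. For Sun1 and Sun2, 0 of 13 clusters were called over both genotypes.

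Between genotypes, 0 of the 6 genes other than Lmna were called in CD4 T cells in any comparison, and 0 of the 6 had an unadjusted p under 0.05. In CD4 T cells 0 of 11029 genes passed between untreated mutant and wildtype (0% of genes; 579 at an unadjusted p under 0.05, and 17 by DESeq2 with adjustment). After DSS it was also 0 (177 unadjusted, 0 by DESeq2), as it was for the difference between the DSS effects (424 unadjusted, 1 by DESeq2). Lmna was lower in both untreated mutant libraries, at 209 and 184 CPM, than in both untreated wildtype libraries, at 282 and 289 CPM. The estimate was -0.54 ± 0.17, and it ran from -0.62 to -0.47 over the alternatives. Handling genes differ between the same libraries, as given above, and their part was not tested. After DSS the mutant estimate was 0.09 ± 0.17. The estimated difference between the DSS effects of mutant and wildtype was 0.63 ± 0.24, and it ran from 0.36 to 0.85 over the alternatives. These 3 comparisons hold the wildtype CD4 T cell values by which Lmna was chosen, a choice that can lower the first and raise the other two, so for Lmna they are a description with no test.

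Within T cell clusters, Lmna again set apart, 0 of 47 fits of the other 6 genes were called in each of the 3 genotype comparisons, and in other cell types 0 of 84 fits of all 7. At an unadjusted p under 0.05 there were 0, 1 and 1 of the 47, for untreated, DSS and the difference of effects in turn (0%, 2.13% and 2.13%, against 5.52%, 3.09% and 4.85% of the fits of all genes). Both were of Lbr in the Il17a Th17-like cluster. In other cells there were 9, 5 and 6 of the 84 (10.7%, 5.95% and 7.14%, against 4.38%, 3.34% and 4.32%). The clusters share libraries, so these fits are not independent. Of the 9 fits in untreated non-T cells, 7 were of Lmnb1 and none of them passed, all lower in the mutant (4 fibroblast-like, 2 endothelial-like and the plasma-like cluster). In the fibroblast-like cluster led by Ogn and Pdgfra, Lmnb1 read 81.9 and 95.1 CPM in untreated wildtype, 50.7 and 56.0 in untreated mutant, 58 and 24.1 in DSS-treated wildtype and 92.0 and 110 in DSS-treated mutant libraries. The order of the genotypes was reversed between treatments, in groups of 2 libraries that can lie apart by chance. The share of all genes with that pattern was not counted. The first DSS-treated wildtype library held 41 cells of this cluster. The difference between the DSS effects there was 2.35 ± 0.42 and did not pass (edgeR adjusted p = 0.0618). It is shown for having the smallest adjusted p among the genotype fits in other cell types.

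Known partners of the lamina were counted in mutant CD4 T cells after DSS. Of 21 nuclear envelope partners, 1 rose, 2 fell and 18 did not pass, so 14.3% were called against 5.3% of all genes, with a median log2 change of 0.14 against 0.01 over all genes tested. Ankle2, a LEM-domain protein that helps rebuild the envelope after mitosis, rose by 0.52 ± 0.13 (edgeR adjusted p = 0.0495). Lpin1, a phosphatidate phosphatase of lipid synthesis, fell by 0.73 ± 0.16 (adjusted p = 0.0368), and the nucleolar gene Rrp1b fell by 0.70 ± 0.16 (adjusted p = 0.0425). Each of these 3 calls was lost without any 1 of the 4 untreated libraries or either DSS-treated mutant library (adjusted p of 0.0566 to 0.23), and when only the libraries compared were fitted. By DESeq2 Ankle2 and Rrp1b also lost theirs, and Ankle2 under RLE normalization (adjusted p = 0.0505). Of 4 nesprin genes, 3 were tested and 0 called, at a median of 0.06, with Syne1 at 0.18 (adjusted p = 0.521), Syne2 at 0.06 (adjusted p = 0.88) and Syne3 at -0.63 (adjusted p = 0.109). Of 5 genes that process prelamin A, 0 were called, at a median of 0.12. The protease gene Zmpste24 stood at 0.12 (adjusted p = 0.548), the methyltransferase gene Icmt at 0.74 (adjusted p = 0.0539) and the protease gene Rce1 at -0.07 (adjusted p = 0.798).

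A-type lamins and emerin are known to affect the actin-regulated MRTF-SRF pathway. Of 17 genes of that pathway and the actin cytoskeleton that were tested, 1 rose, 0 fell and 16 did not pass, at a median of -0.02. That is 5.88% called, near the 5.3% of all genes, and no result about the list. The gene called was Srf, the transcription factor of the pathway, by 0.69 ± 0.16 (edgeR adjusted p = 0.0455). The call was lost without any 1 of the 4 untreated libraries, without the second DSS-treated mutant library, by DESeq2 or with only the libraries compared, at adjusted p-values of 0.0657 to 0.204. Srf stood at 17.7 and 17.5 CPM in untreated and 28.1 and 31.8 CPM in DSS-treated mutant libraries. In the wildtype it stood at 14.6 and 15.4 CPM untreated and 24.3 and 33.1 CPM after DSS. For each of these 4 lists, 0 genes were called in any genotype comparison.

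CD4 T cells with and without a Lmna UMI were set side by side within each library, at 1000 UMIs per cell. There were 216 to 465 cells with a Lmna UMI per library, and 2962 genes were considered. The comparison pools the T cell clusters and has no test. Vim, which encodes the intermediate filament protein vimentin, averaged 1233 CPM in cells with a Lmna UMI and 686 CPM in those without, and it was higher in 8 of 8 libraries (mean log2 ratio 0.84, lowest 0.72). Also higher in 8 of 8 were Crip1 (0.70), the calcium-binding genes S100a4 (0.63) and S100a6 (0.50), the actin-binding gene Tagln2 (0.51), the scaffold gene Ahnak (0.60) and the granzyme gene Gzmb (0.75). Fgl2 (0.73), Dennd4a (0.51) and Glrx (0.44) completed the 10 genes named, those with the highest ratio in their lowest library, a rule that favours 8 of 8. Lower in 8 of 8 was Il22, the epithelial repair cytokine, at 59.95 CPM with and 141 CPM without a Lmna UMI (-1.08). Tbc1d4 (-0.60), Igf1r (-0.70), Ighm (-0.69) and Rgs10 (-0.62) were also lower in every library. Among the other members, Lbr averaged 0.14 and was higher in 8 of 8, by 0.0049 to 0.38. The share of all genes higher in 8 of 8 was not counted. The means of Lmnb1, Emd, Sun1 and Sun2 lay between 0.06 and 0.10. For Lmnb1, Emd and Sun1 the sign was positive in 6 of 8 libraries each, and for Sun2 in 4. Lmnb2, sparsely counted at 3.14 CPM with and 5.79 CPM without a Lmna UMI, averaged -0.27 and was higher in 1 of 8.

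**Figure D5:**
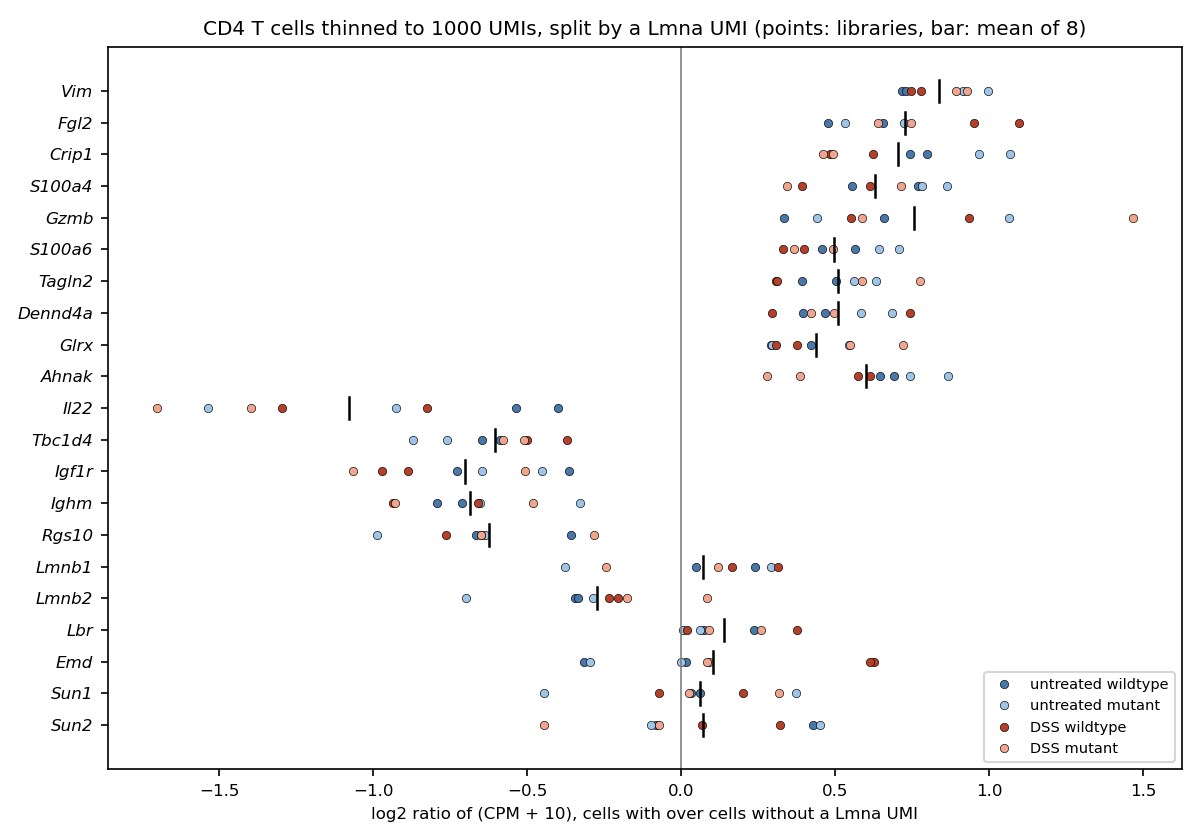
Log2 ratio of each gene between CD4 T cells with and without a Lmna UMI, with 1 point per library (8 libraries, cells thinned to 1000 UMIs). Vim lies above 0.7 in every library and Il22 below 0 in every library, while the other members except Lmnb2 scatter around means of 0.06 to 0.14.

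Genes with a pattern most like that of Lmna were ranked by Pearson's r, as a description. Across the 23 clusters and 9692 genes these were Piezo1 (r = 0.914), which encodes a mechanically gated ion channel, Fbxo30 (0.900), Gas2l1 (0.880), Vat1 (0.879) and Myadm (0.875). Among the members r was 0.23 for Sun1, -0.14 for Emd, -0.51 for Sun2 and -0.56 for Lbr. Across the 8 libraries of CD4 T cells and 5205 genes, the nearest were Mad2l1bp (r = 0.996), Son (0.981), Crip1 (0.979), the tubulin gene Tuba1a (0.969) and 1110059G10Rik (0.965). Of these, Crip1 was also higher in single T cells with a Lmna UMI. All points in both rankings share the same 8 libraries.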

How the data were processed

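The data are UMI counts per gene and barcode, deposited by the authors for 8 libraries, with a list of the cells they kept. Cell Ranger 3.1.0, Seurat 4.0.1 and mm10 are named in the submitters' processing notes. Barcodes with at least 400 genes and under 20% mitochondrial UMIs were clustered (30 principal components, 15 neighbours, Leiden resolution 1, leidenalg 0.10.2) without the 7 genes. No doublet caller was run. Cells with 2 or more UMIs of other-type markers, 41.2% of CD4 T cells, were left out as an alternative. Cells of T clusters on the authors' list were clustered again, and a cluster was tested with at least 20 cells in every library. Cells off the list were kept in the other clusters. Raw counts were summed per library and cluster and tested over all genes with edgeR 4.0.16 (TMM, filterByExpr, quasi-likelihood, 4 groups, Benjamini-Hochberg threshold 0.05), checked on simulated data. DESeq2 1.42.0 was an alternative. SE is the estimate divided by the root of F. CPM is of the summed UMIs. The labels do not say whether a library is 1 animal. Members and gene lists were chosen with earlier results of these data known. Genes named beside members were the list genes past the threshold, or the first 3 of a list, the 5 most alike, and the 10 highest and 5 lowest by their least extreme library in the Lmna UMI comparison. Coordinates come from GENCODE on GRCm38, where 98.5% of identifiers had the same symbol.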

Additional observations from a re-analysis of the deposited data

How the results depend on the processing

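For DSS in mutant CD4 T cells, fitting only the libraries compared gave Lmna -0.90 (adjusted p = 0.0628), so 0 members and 145 genes called, against 1 member and 584 genes. There were 1612 genes with no filter and 1057 with T cells on or off the list. Leaving out each library in turn gave -1.17 to -0.67 for Lmna, 0 or 1 members and 0 to 639 genes (129 without either untreated wildtype library, 0 and 29 without the first and second untreated mutant library, 42 without the second DSS-treated mutant library). These fits hold fewer libraries, and the cause of each lost call was not tested. Between untreated genotypes, no filter gave 134 genes called and DESeq2 17 genes. Lmna was -0.55 with no filter, a description, since the wildtype values that chose Lmna are part of it. After DSS, no filter gave 29 genes, and leaving out each library 0 to 4. For the difference of DSS effects, no filter gave 69 genes and DESeq2 1. The labels give no shared replicate numbers. A replicate block by neighbouring numbers in the sample titles gave 24 genes called between untreated genotypes and 0 members. The labels do not state that pairing. Estimates near 0 changed sign. Sun1 was -0.10 with T cells on or off the list, -0.0039 without the heat-shock cluster and -0.13 to 0.15 with libraries left out. Lmnb1 ran from -0.36 to 0.15, Lmnb2 from -0.58 to 0.28, Emd from -0.093 to 0.34 and Lmna after DSS between genotypes from -0.18 to 0.32. Lmna ran from -0.99 to 0.012 in cycling-like T cells and from -6.13 to 0.26 in the naive or central memory-like cluster, whose lower end rests on a library at 0. In the Ogn and Pdgfra fibroblast-like cluster it was -0.013 with no filter and -0.28 to 0.22 with libraries left out. Clusters with Lmna called lower numbered 3 to 5 of T cells (4 as reported) and 5 to 8 of other cells (6 as reported). Lmnb2, at 358 UMIs in CD4 T cells, is limited by depth, and 2 libraries per group limit every comparison.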
